A study of Mus musculus with 4 samples.

Results

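Accessible chromatin sites around the chemosensory receptor genes were examined in mouse embryo fibroblasts treated to delete Ash2l, which encodes a core subunit of the KMT2 histone methyltransferase complexes. A site was included when its centre lay within 10 kb of a gene whose symbol starts with Olfr, Vmn1r, Vmn2r, Taar or Tas2r followed by a digit, on chromosomes 1 to 19 of mm9 with GENCODE vM1 genes. By this rule 196 of the 119609 intervals in the deposited table were receptor sites, and all 196 passed the filter on low counts. ATAC-seq, which lets a transposase insert sequencing adapters into open DNA, gave the accessibility of each interval. The +HOT cells received 4-hydroxytamoxifen at 5 nM over 7 days, so that Cre-ER removed exon 4 of Ash2l, and the -HOT cells received ethanol vehicle instead. Both groups were the same immortalized line, iMEF2, with floxed Ash2l alleles (Ash2l fl/fl), Cre-ER and a retroviral shRNA against p19Arf. Each group had 2 libraries, described as technical replicates, so the p-values rest on a spread that may be purely technical. No drug-treated cells with intact Ash2l alleles were analysed here, and drug, Cre activity and deletion cannot be told apart.

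Chemosensory receptors are G protein-coupled receptors that sense odours, pheromones and bitter compounds. Olfactory receptors (Olfr) and most trace amine-associated receptors (Taar) serve the main olfactory epithelium, where the latter detect volatile amines. Vmn1r and Vmn2r receptors serve the vomeronasal organ, and Tas2r receptors detect bitter compounds on taste cells. The genes stand in tandem arrays, and an olfactory neuron chooses a single receptor allele while the others stay silent in compact, H3K9me3-marked heterochromatin. Fibroblasts are not sensory cells and do not normally use these receptors.

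Reads within the intervals numbered 28117900 and 21356440 for +HOT, against 37151163 and 30411621 for -HOT, so the +HOT values rest on fewer reads. Levels are read counts scaled to library size (CPM) with TMM factors, and fold changes are log2 values of +HOT over -HOT from edgeR's quasi-likelihood test. Gained and lost sites had an adjusted p below 0.05 (Benjamini-Hochberg over all 119603 tested intervals) together with a log2 fold change of more than 0.40 in size. The interval over the starts of most full-length Ash2l transcripts (mm9 chromosome 8, 26950375 to 26952151) held 30.9 and 25.3 CPM in +HOT and 35.6 and 31.6 CPM in -HOT. It lies outside the deleted exon and does not check the deletion, and no interval covered that exon. All 10 fibroblast markers examined had an interval within 3000 bp of their start, with a summed level of 332 and 323 CPM in +HOT and 420.3 and 396 CPM in -HOT. Of the 10 markers of olfactory and vomeronasal neurons 5 had none, among them the cyclic nucleotide-gated channel genes Cnga2 and Cnga4.

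The stretches with a core of the CTCF motif, the DNA sequence bound by the chromatin organizer CTCF, are shown first because the core was found among the gained and not among the lost receptor sites. The core searched was CCA, AG and GGC, each parted by 2 bases of any kind. It was looked for on both strands in the central 300 bases of each interval. It was found in 8 of the 75 gained receptor sites, all of them between genes, and in 0 of the 16 lost ones. Of the 105 receptor sites not called, 4 also held it. Among all intervals the core was found in 12.2% of the gained and 1.53% of the lost ones. The contrast is thus not particular to receptor sites. The 8 stretches follow in order of log2 fold change, read 5′ to 3′ on the strand that holds the pattern, with mm9 coordinates and the match in capitals.
Olfr713 site, chr7:114189495-114189554, minus strand: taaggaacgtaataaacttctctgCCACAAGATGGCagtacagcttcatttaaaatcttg
Olfr1393 site, chr11:49083866-49083925, plus strand: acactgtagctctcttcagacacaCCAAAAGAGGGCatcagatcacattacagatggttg
Olfr554 site, chr7:109785400-109785459, minus strand: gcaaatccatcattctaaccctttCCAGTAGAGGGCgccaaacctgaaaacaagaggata
Olfr557 site, chr7:109844066-109844125, plus strand: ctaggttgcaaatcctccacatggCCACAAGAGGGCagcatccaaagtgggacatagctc
Olfr427 site, chr1:176034042-176034101, minus strand: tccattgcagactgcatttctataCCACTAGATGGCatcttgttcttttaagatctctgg
Tas2r138 site, chr6:40568131-40568190, plus strand: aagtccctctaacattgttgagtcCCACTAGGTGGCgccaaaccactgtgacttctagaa
Olfr1513 site, chr14:52963430-52963489, minus strand: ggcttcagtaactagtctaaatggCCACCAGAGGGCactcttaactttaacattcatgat
Olfr94 site, chr17:37340739-37340798, minus strand: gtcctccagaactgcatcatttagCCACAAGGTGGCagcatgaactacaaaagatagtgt

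The pattern TGANTCA leaves its middle base free and includes TGAGTCA and TGACTCA, the AP-1 cores bound by FOS and JUN factors. It was found in 6 of the 16 lost and in 17 of the 75 gained receptor sites, beside 28.8% of all lost and 17.3% of all gained intervals. The 6 stretches from lost sites come first, to show that the pattern occurred in sites that moved in opposite directions. The Olfr432 stretch holds TGAATCA, which is neither of these cores.
Olfr90 site, chr17:37212926-37212966, plus strand: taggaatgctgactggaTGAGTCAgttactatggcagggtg
Olfr56 site, chr11:48932617-48932657, plus strand: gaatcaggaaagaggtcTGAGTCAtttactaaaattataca
Olfr47 site, chr6:43193314-43193354, plus strand: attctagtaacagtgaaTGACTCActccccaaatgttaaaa
Olfr432 site, chr1:175983305-175983345, plus strand: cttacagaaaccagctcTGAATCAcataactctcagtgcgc
Olfr269-ps1 site, chr4:43770366-43770406, plus strand: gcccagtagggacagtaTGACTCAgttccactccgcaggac
Olfr12 site, chr1:94512822-94512862, plus strand: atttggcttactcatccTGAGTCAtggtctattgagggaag
The 4 gained sites with the highest log2 fold changes among those with the pattern are shown for comparison. Of these, the Olfr1375-ps1 and Olfr54 sites have near-identical copies elsewhere in the genome.
Olfr552 site, chr7:109746113-109746153, plus strand: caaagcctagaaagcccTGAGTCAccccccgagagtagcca
Olfr1375-ps1 site, chr11:50865380-50865420, plus strand: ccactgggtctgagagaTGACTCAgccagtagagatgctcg
Olfr1393 site, chr11:49083909-49083949, plus strand: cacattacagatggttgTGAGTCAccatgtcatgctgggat
Olfr54 site, chr11:50844616-50844656, plus strand: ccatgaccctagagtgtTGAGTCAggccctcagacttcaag

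The central 150 bases of the 3 most gained receptor sites are printed because their change was the largest. Matches to any of the 7 patterns searched are in capitals, and the Olfr881 and Olfr24 stretches had none. The Olfr298 stretch lies in the coding exon of the gene and holds GGAATG, the core bound by TEAD factors, on the opposite strand.
Olfr298 site, chr7:93637452-93637601, plus strand: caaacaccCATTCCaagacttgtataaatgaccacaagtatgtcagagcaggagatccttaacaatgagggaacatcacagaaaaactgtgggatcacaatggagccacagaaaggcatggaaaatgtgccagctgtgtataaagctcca
Olfr881 site, chr9:37806333-37806482, plus strand: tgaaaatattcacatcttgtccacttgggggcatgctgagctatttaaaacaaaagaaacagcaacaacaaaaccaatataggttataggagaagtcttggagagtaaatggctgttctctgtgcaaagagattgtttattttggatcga
Olfr24 site, chr9:18549346-18549495, plus strand: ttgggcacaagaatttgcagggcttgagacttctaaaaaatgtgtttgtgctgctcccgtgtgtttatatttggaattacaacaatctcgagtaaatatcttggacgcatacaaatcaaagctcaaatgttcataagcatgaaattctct

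Few of the deposited intervals lay around receptor genes. The handling of multiply aligned reads is not stated, and its part in these counts was not tested. The 1620 annotated receptor genes with 10 kb on each side cover 31.6 Mb and held 6.20 intervals per Mb, against 47.1 intervals per Mb over chromosomes 1 to 19. Of these genes 164 (10.1%) had a site within 10 kb and 19 had a site centred within 1 kb of their start. The genes form 87 clusters when genes of one family less than 1 Mb apart are joined, and 49 clusters had a site while 38 had none. The largest cluster, with 268 Olfr genes on chromosome 2 from Olfr987 to Olfr1274-ps, had 1 site. No receptor site was present in the Vmn1r cluster of 65 genes on chromosome 7, the Tas2r cluster of 24 genes on chromosome 6 or the Vmn2r cluster of 21 genes on chromosome 17. The Olfr cluster on chromosome 7 between Olfr543 and Olfr692, with 145 genes, held the most sites, 20.

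The receptor sites were weak. Their median level was 2.74 CPM, against 4.51 CPM for all tested intervals, and their median length was 582 bp, against 804 bp. Their median GC content was 43.8%, against 45.9% for all intervals. Summed over the 196 sites, the level was 1091 and 1066 CPM in +HOT, against 1029 and 1021 CPM in -HOT. The +HOT libraries lay above both -HOT libraries in this sum, a difference that an exact two-sided permutation test over 2 against 2 libraries cannot take below p = 0.333.

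In +HOT cells 75 receptor sites were gained (38.3%, 95% Wilson interval 31.7 to 45.2%) and 16 were lost (8.16%, 5.09 to 12.8%), and 105 were neither. Over all tested intervals 21.3% were gained and 14.2% lost. Among all intergenic intervals, which lie more than 3000 bp from a start and outside genes, 28.4% were gained and 9.28% lost. The intervals cover counting error only, and neighbouring sites are not independent. The median log2 fold change of the receptor sites was 0.29, with a range of 0.27 to 0.30 over the 4 pairs of a +HOT and a -HOT library, beside a median of 0.00 over all tested intervals. In 108 of the 196 sites (55.1%) both +HOT libraries lay above both -HOT libraries, a pattern seen in 36.1% of all tested intervals. In 39 sites both lay below, a pattern seen in 34.7% of all tested intervals. In bulk cells, a site open in more cells and a site more open in each cell cannot be told apart. The count of gained sites was 50 with DESeq2, where 8 sites were lost. Leaving out -HOT replicate 1 gave 52 gained and 8 lost.

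The change went with the level of a site. The 75 gained receptor sites had a median level of 2.29 CPM (0.721 to 15.2 CPM) and a median log2 fold change of 1.02, and the 16 lost sites a median level of 6.03 CPM (1.45 to 31.7 CPM) and a median log2 fold change of -0.69. Of the 124 receptor sites in the 5 weakest deciles of all intervals 60 were gained and 6 lost, while of the 72 in the 5 strongest deciles 15 were gained and 10 lost. All intervals showed a like slope, with a decile median of 0.24 in the weakest and -0.20 in the strongest decile. Their gained share was 31.4% in the weakest and 1.25% in the strongest decile, and their lost share 4.56% and 16.5%. When the shares of all intervals were weighted by the decile mix of the receptor sites, 24.9% were gained and 12.3% lost. Among the 105 receptor sites that are intergenic, 45 (42.9%) were gained, beside 31.5% for all intergenic intervals at the same mix. The median receptor site lay 0.15 above the median of its decile on the log2 scale. No test of the difference between receptor sites and other intervals was made.

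**Figure D1:**
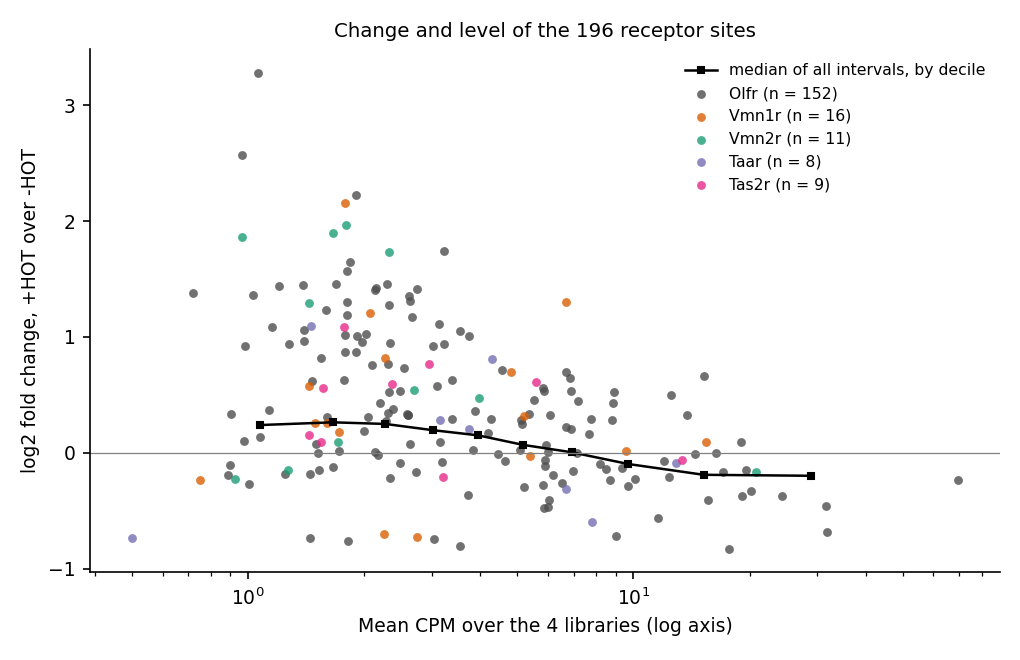
log2 fold change of +HOT over -HOT (vertical axis) against mean CPM over the 4 libraries (horizontal log axis) for the 196 receptor sites, coloured by family; the black line joins the medians of all tested intervals in each decile of level. Most receptor sites under 4 CPM lie above the line, and the 6 sites of the strongest decile lie between -0.68 and -0.16.

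The share of gained sites was highest close to the receptor genes. It was 37.5% inside a receptor gene (24 sites) and 38.4% up to 10 kb from it (172 sites), against 25% at 10 to 50 kb, 20.1% at 50 to 200 kb, 18.2% at 200 to 500 kb, 16.6% at 500 to 1000 kb and 21.3% beyond. The share of lost sites was 12.5% inside a receptor gene and 7.56% up to 10 kb, against 18.6% at 10 to 50 kb. The median log2 fold change was 0.22 inside a gene and 0.29 up to 10 kb, and lay between -0.08 and 0.003 in the 5 bins farther out. The median level also differed, with 2.66 and 2.85 CPM in the 2 nearest bins and 5.28 CPM at 10 to 50 kb, and its part in this difference was not tested. The 2 sites closest to the limit inside it, at 9994 bp from Olfr1443 and 9996 bp from Olfr433, had log2 fold changes of 0.63 and -0.21 and were not called. The 2 closest outside it, at 10054 bp from Olfr514 and 10135 bp from Tas2r143, had log2 fold changes of 1.04, called gained, and -0.28, not called.

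**Figure D2:**
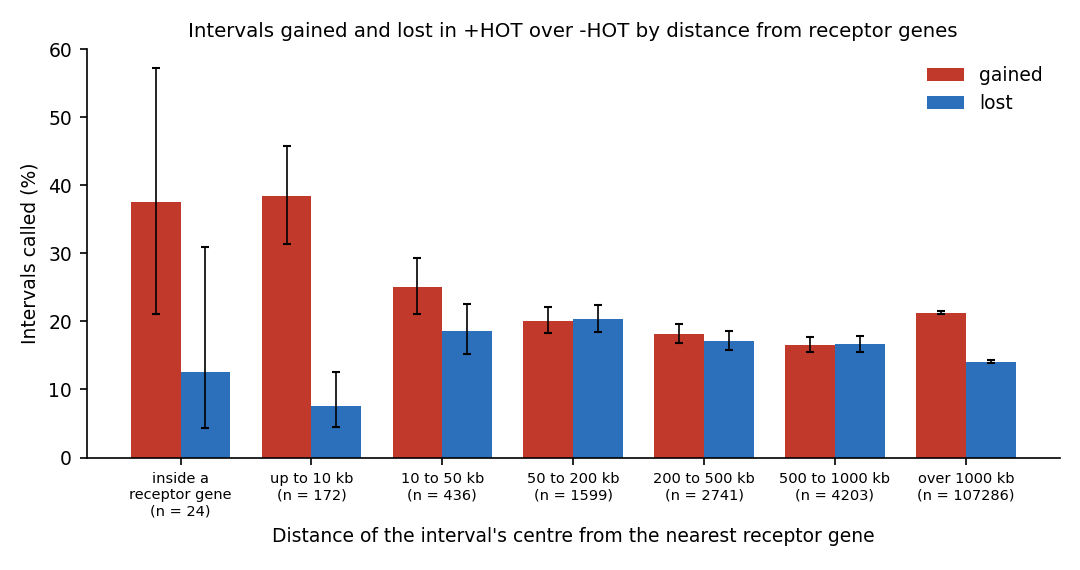
Share of tested intervals (vertical axis, percent) gained and lost in +HOT over -HOT, by distance of the interval's centre from the nearest receptor gene; bars start at 0, whiskers are 95% Wilson intervals and n is the number of intervals. The gained share is 38.4% up to 10 kb and 25% at 10 to 50 kb.

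The most gained site lay in the coding exon of the olfactory receptor gene Olfr298 (mm9 chromosome 7, 93637342 to 93637712), with its centre 532 bp from the start. It held 2.11 and 1.76 CPM in +HOT, against 0.250 and 0.134 CPM in -HOT, and these -HOT values rest on 9 and 4 reads. Its log2 fold change was 3.28 (SE 0.43, edgeR adjusted p = 1.89e-10). The site near Olfr881 (chromosome 9, 37806287 to 37806529) held 1.54 and 1.76 CPM in +HOT, against 0.222 and 0.335 CPM in -HOT, a log2 fold change of 2.57 (SE 0.41, edgeR adjusted p = 1.46e-07). The site near Olfr24 (chromosome 9, 18549196 to 18549646) held 3.30 and 2.98 CPM in +HOT, against 0.556 and 0.803 CPM in -HOT, a log2 fold change of 2.22. All 3 were close to closed in the -HOT cells. That their groups did not overlap was a condition for naming them. The site 90 bp from the start of the vomeronasal gene Vmn1r20 held 2.98 and 2.84 CPM in +HOT, against 0.694 and 0.603 CPM in -HOT, a log2 fold change of 2.16. A near-identical copy of this sequence exists in the receptor clusters, so its reads cannot be assigned with certainty.

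The Vmn2r receptors, which bind peptide and protein pheromones, supplied 4 of the 10 most gained sites. The site near Vmn2r9 on chromosome 5 held 3.09 and 2.62 CPM in +HOT, against 0.694 and 0.770 CPM in -HOT (log2 fold change 1.97). The site near Vmn2r8 on the same chromosome, which lies in the gene Tmed11, held 3.30 and 3.84 CPM in +HOT, against 1.03 and 1.10 CPM in -HOT (log2 fold change 1.74). In introns of Vmn2r80 a site held 2.91 and 2.35 CPM in +HOT, against 0.917 and 0.469 CPM in -HOT, and a second one 1.40 and 1.63 CPM in +HOT, against 0.389 and 0.435 CPM in -HOT, with log2 fold changes of 1.90 and 1.87. These 4 sites lay at 0.963 to 2.32 CPM on average. The site near Olfr875 (chromosome 9, 37590380 to 37591543) held 4.77 and 5.15 CPM in +HOT, against 1.39 and 1.57 CPM in -HOT (log2 fold change 1.74, SE 0.22). The site near Olfr633 (chromosome 7, 111091066 to 111091547) held 3.05 and 2.48 CPM in +HOT, against 0.611 and 1.21 CPM in -HOT (log2 fold change 1.64). In every refit that tested them these 10 sites stayed gained.

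The lost sites changed by less. The most lost site lay 4767 bp from Olfr288 (chromosome 15, 98011109 to 98012246) and held 14.5 and 10.8 CPM in +HOT, against 25 and 20.3 CPM in -HOT, a log2 fold change of -0.83 (SE 0.11, edgeR adjusted p = 4.97e-10). The site near Olfr90 on chromosome 17 held 2.35 and 2.84 CPM in +HOT, against 4.64 and 4.39 CPM in -HOT (log2 fold change -0.81), and carries the first AP-1 stretch printed above. Both stayed lost under every refit. The lost sites near Olfr543, in an intron of Olfr56 and near Olfr47 held 1.05 and 1.67, 1.76 and 2.84, and 1.05 and 1.13 CPM in +HOT, against 2.11 and 2.44, 3.92 and 3.62, and 1.97 and 1.64 CPM in -HOT. Their log2 fold changes were -0.76, -0.74 and -0.74. None of these 3 calls held with DESeq2 or without +HOT replicate 1, where the values were -0.44 for Olfr543, -0.41 for Olfr56 and -0.68 for Olfr47. The call was also lost without -HOT replicate 2 for Olfr543 (-0.66), without -HOT replicate 1 for Olfr56 (-0.68) and without any single library for Olfr47.

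**Figure D3:**
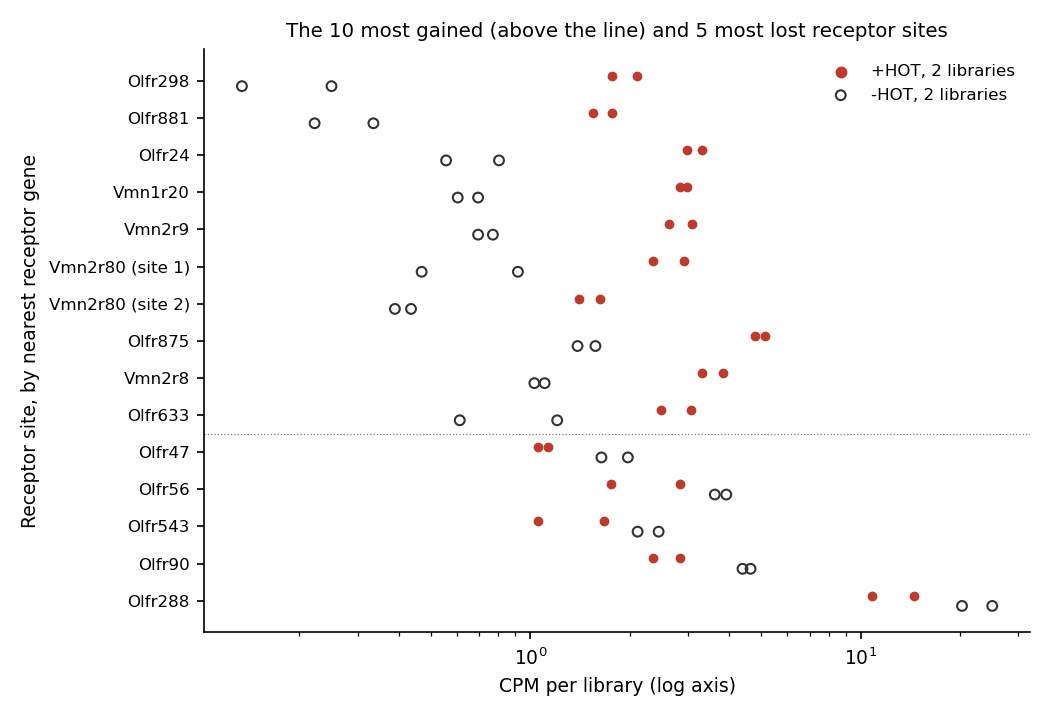
CPM of each library (horizontal log axis) for the 10 most gained and the 5 most lost receptor sites whose groups did not overlap, named by nearest receptor gene; filled points are the 2 +HOT libraries and open circles the 2 -HOT libraries. The gained sites hold 1.40 to 5.15 CPM in +HOT and at most 1.57 CPM in -HOT, while the most lost site near Olfr288 holds 14.5 and 10.8 CPM in +HOT and 25 and 20.3 CPM in -HOT.

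By family, 57 of 152 Olfr sites were gained and 13 lost, with a median log2 fold change of 0.29. For Vmn1r 5 of 16 sites were gained and 2 lost (median 0.26), and for Vmn2r 7 of 11 were gained and 0 lost (median 0.54). For Tas2r 4 of 9 were gained and 0 lost (median 0.56), and for Taar 2 of 8 were gained and 1 lost (median 0.06). Over all tested intervals 21.3% were gained and 14.2% lost, and 24.9% and 12.3% at the decile mix of the receptor sites. Across the scalings tried the family medians kept their sign except for Taar, which ranged between -0.02 and 0.13. With DESeq2 36 Olfr sites were gained and 7 lost, and 0 Vmn1r sites were lost. The count of gained Vmn2r sites was 5 with DESeq2, with distal TMM factors and with the abundance or GC trend removed. Leaving out -HOT replicate 1 gave 8 lost Olfr sites, 1 gained and 0 lost Taar sites, 2 gained Tas2r sites and 0 lost Vmn1r sites, with a Vmn1r median of 0.11. Leaving out any other single library gave 1 lost Vmn1r site. Differences between families were not tested, and the Wilson intervals of their gained shares overlap. The lost Taar site, near Taar7f, held 6.92 and 5.46 CPM in +HOT, against 10.6 and 8.23 CPM in -HOT. The gained site near Taar9 held 5.27 and 5.73 CPM in +HOT, against 3.58 and 2.61 CPM in -HOT (log2 fold change 0.81, SE 0.19), and that near Taar1 held 2.11 and 1.85 CPM in +HOT, against 0.806 and 1.07 CPM in -HOT. The Vmn1r site with the lowest adjusted p lay near Vmn1r238 and held 7.65 and 11.3 CPM in +HOT, against 2.97 and 4.75 CPM in -HOT (log2 fold change 1.30, SE 0.16). The Tas2r site with the lowest adjusted p, near Tas2r134 on chromosome 2, held 2.56 and 2.26 CPM in +HOT, against 1.14 and 1.14 CPM in -HOT (log2 fold change 1.08, SE 0.28).

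Of the 20 receptor sites centred within 1 kb of a receptor gene start 9 were gained and 2 lost. Their median log2 fold change was 0.48. The gained share was 45%, with a Wilson interval of 25.8 to 65.8%. That interval covers the 38.3% of all receptor sites and the 28.4% of all intergenic intervals. The shares of all tested intervals (21.3%) and of all promoter intervals (7.07%) lie below it. The share of the 20 start sites was not tested against any of these. With DESeq2, and likewise without -HOT replicate 1, 4 were gained and 0 lost. In addition to Olfr298 and Vmn1r20, the site in the pseudogene Olfr1069-ps1 (chromosome 2, 86304840 to 86305322), the 1 site of the cluster of 268 genes, held 3.76 and 3.75 CPM in +HOT, against 1.69 and 1.31 CPM in -HOT (log2 fold change 1.31, SE 0.24). The site in the coding exon of Olfr692 held 0.913 and 1.17 CPM in +HOT, against 0.361 and 0.435 CPM in -HOT (log2 fold change 1.38). The start sites of Olfr920, Olfr91, Olfr1358, the bitter receptor gene Tas2r126 and the pseudogene Olfr754-ps1 had log2 fold changes of 1.08, 0.76, 0.73, 0.61 and 0.43. Each of these 5 calls, and that of Olfr692, was lost on leaving out -HOT replicate 1 or -HOT replicate 2. Those of Olfr91, Olfr1358 and Olfr754-ps1 were also lost without +HOT replicate 1, and those of Olfr692 and Tas2r126 without +HOT replicate 2. Both lost start sites belong to Vmn1r90, and the one 179 bp from its start held 2.32 and 1.81 CPM in +HOT, against 4.28 and 2.54 CPM in -HOT (log2 fold change -0.73). It has a near-identical copy elsewhere in the genome, and it was not called without -HOT replicate 1 (log2 fold change -0.29) or +HOT replicate 2 (-0.57), with the GC trend removed (-0.43) or with DESeq2 (-0.73). The other Vmn1r90 site was also not called with DESeq2 or without -HOT replicate 1. In no fit that left out a library were both Vmn1r90 sites called.

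The Olfr456 promoter, which was assayed by ChIP-qPCR in the study, had no interval at its start. The 1 interval within 10 kb lay 3347 bp upstream (chromosome 6, 42439573 to 42441547) and held 15.6 and 13.1 CPM in +HOT, against 14.9 and 14.1 CPM in -HOT. The groups overlapped, and the log2 fold change was -0.01 (SE 0.11, edgeR adjusted p = 0.964). At the promoter itself the paper reports low H3K4 methylation and a raised histone H3 signal after Ash2l loss, at an earlier day. It also reports raised Olfr456 expression in the treated cells. The upstream interval measures none of these. The neighbouring site near Olfr455 was also strong, with 21.7 and 17.7 CPM in +HOT, against 18.4 and 18.5 CPM in -HOT (log2 fold change 0.10). The third site of the area, also near Olfr455, held 2.32 and 1.44 CPM in +HOT, against 0.833 and 1.00 CPM in -HOT, and was gained (log2 fold change 1.06). The weak site alone was called.

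Sites were also split by their place within the arrays, beside 21.3% gained and 14.2% lost over all tested intervals. The gained share was 45% at receptor starts, 41.7% elsewhere in receptor genes and 40.1% between genes, and these shares were not tested against each other. Of 152 sites outside receptor genes and away from the starts of other genes 61 were gained and 10 lost (median log2 fold change 0.31), and 6 of them lie inside a gene of another kind. Of these 152 sites 5 were lost without -HOT replicate 1 or with library totals alone, and 6 with DESeq2. Of 12 sites inside a receptor gene and over 1 kb from its start 5 were gained and 1 lost (median 0.28), and 2 were gained with DESeq2, with the abundance trend removed, without +HOT replicate 2 and without -HOT replicate 1. Without +HOT replicate 1, without -HOT replicate 2, with distal TMM factors and with the GC trend removed 3 were gained. The other 12 sites lay at the start of a gene that is no receptor, a class set apart after the values were seen, and 0 were gained and 3 lost (median -0.27, between -0.34 and -0.15 over the scalings). The lost count was 6 with TMM factors from distal sites and 2 with DESeq2. Among all tested promoter intervals 7.07% were gained and 23.5% lost. The median level of the 12 sites was 18.1 CPM, and the part of level in their change was not tested. The places planned at first did not set this class apart. By these, 5 of 15 sites in a receptor gene and away from its start were gained and 2 lost (median 0.004). Of 161 sites outside receptor genes 61 were gained and 12 lost (median 0.28). The promoter of Stx3, a syntaxin of vesicle fusion, lies 9038 bp from Olfr1417 and held 24.7 and 24.1 CPM in +HOT, against 41.2 and 37.0 CPM in -HOT (log2 fold change -0.68, SE 0.10, edgeR adjusted p = 5.8e-09). The promoter of H2-M3, a class Ib MHC gene next to Olfr755-ps1, held 9.79 and 8.94 CPM in +HOT, against 14.3 and 13.4 CPM in -HOT (log2 fold change -0.56). The promoter of the interferon-inducible GTPase gene Ifi47, inside the annotated span of Olfr56, held 4.67 and 5.19 CPM in +HOT, against 6.61 and 7.03 CPM in -HOT (log2 fold change -0.47). The promoters of Ndufa10, Zfp174 and Gm12258 had log2 fold changes of -0.37, -0.37 and -0.33 and were not called, as their change was under the threshold.

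The strongest receptor site was none of these promoters. It lay 5768 bp from Olfr750 (chromosome 14, 51682614 to 51685823) and held 67.8 and 60.01 CPM in +HOT, against 76.6 and 74.2 CPM in -HOT. Both +HOT libraries lay below both -HOT libraries, but the log2 fold change of -0.24 (edgeR adjusted p = 0.0311) was under the threshold. The site near Olfr1359, 5422 bp from the histone gene Hist1h2bl, held 27.6 and 25.7 CPM in +HOT, against 37.4 and 35.9 CPM in -HOT, and was lost (log2 fold change -0.46). It was not called with library totals alone (-0.39) or with the abundance trend removed (-0.25). The promoters of Zfp202 and AI987944, near Olfr986 and Vmn2r57, had log2 fold changes of -0.15 and -0.16 and were not called. Of the 6 receptor sites in the strongest decile 0 were gained and 2 lost, beside 1.25% gained and 16.5% lost among all intervals of that decile.

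The balance of calls was also counted by cluster. Of the 49 clusters with a site 32 had more gained than lost sites, 3 more lost than gained and 14 as many of each, 11 of them with no call. Gained intervals also outnumbered lost ones over all tested intervals (21.3% against 14.2%). At the decile mix of the receptor sites the shares were 24.9% and 12.3%, and most clusters held fewer than 5 sites. Of the 14 clusters with at least 5 sites, 12 had more gained than lost sites. Among these 14 the highest medians were found in the Olfr151 to Olfr986 cluster on chromosome 9 (median 0.96, 4 of 7 gained, 0 lost), the Olfr543 to Olfr692 cluster on chromosome 7 (median 0.82, 12 of 20 gained, 1 lost) and the Olfr459 to Olfr47 cluster on chromosome 6 (median 0.82, 4 of 7 gained, 1 lost). The lowest of the 14 were found in the Olfr1416 to Olfr12 cluster on chromosome 1 (median -0.18, 0 of 7 gained, 1 lost) and the Olfr56 to Olfr1380 cluster on chromosome 11 (median -0.07, 2 gained and 2 lost of 17). These signs held under every scaling tried, but the Olfr1416 to Olfr12 median was 0.02 without +HOT replicate 2 and 0.06 over the 6 sites with a mean of at least 1 CPM. For the Olfr459 to Olfr47 cluster 1 site was gained without +HOT replicate 1 (median 0.23) and 1 without -HOT replicate 1 (median 0.71), and 1 was gained with DESeq2 (median 0.81). In the Olfr56 to Olfr1380 cluster 8 sites lie within the annotated Olfr56 model, which spans 156 kb and covers other genes, and 2 of these were lost and 0 gained. With DESeq2 0 sites of this cluster were lost. In the Olfr70 to Olfr155 cluster on chromosome 4, with 2 gained and 1 lost of 13, the median was 0.08, and it was between -0.10 and 0.22 over the scalings.

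**Figure D4:**
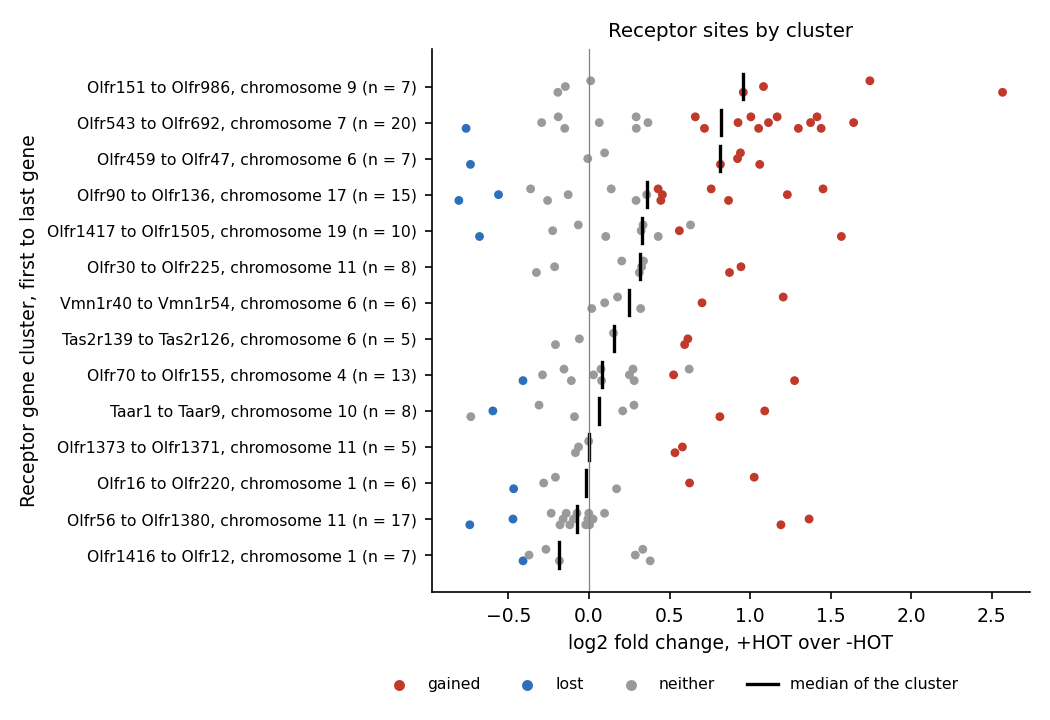
log2 fold change of +HOT over -HOT (horizontal axis) for each receptor site of the 14 clusters with at least 5 sites, with clusters ordered by median; points are sites coloured by call, black bars the cluster medians, n the number of sites. Medians run between -0.18 and 0.96, and single sites of nearly every cluster lie on both sides of 0.

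Along the chromosome 7 cluster the gained sites were spread over its length. In a stretch chosen after the values were seen, from the site near Olfr552 to that near Olfr685, all 9 sites over 2.57 Mb were gained, with log2 fold changes of 0.72 to 1.64 and mean levels of 1.2 to 4.56 CPM. Over all tested intervals 21.3% were gained, and 24.6 to 31.8% in each of the 6 weakest deciles, which hold these levels. Neighbouring sites are not independent, and the choice of the stretch favours such a run. Summed over these 9 sites the level was 33.1 and 31.0 CPM in +HOT, against 13.9 and 15.6 CPM in -HOT. The site near Olfr552 held 3.97 and 4.02 CPM in +HOT, against 1.33 and 1.67 CPM in -HOT, a log2 fold change of 1.42. The sites near Olfr554 and Olfr557, both with the CTCF core printed above, held 2.60 and 2.53 CPM and 4.21 and 3.16 CPM in +HOT, against 0.833 and 1.27 CPM and 1.72 and 1.57 CPM in -HOT. Among the 9 sites at the Olfr543 end, within 0.11 Mb, 2 were gained and 1 lost with a median log2 fold change of 0.29. The stronger of the gained ones, 1847 bp upstream of Olfr543 (109627616 to 109628911), held 17.8 and 19.5 CPM in +HOT, against 11.8 and 11.7 CPM in -HOT (log2 fold change 0.66, SE 0.11, edgeR adjusted p = 2.96e-07). It had the highest level of all gained receptor sites.

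**Figure D5:**
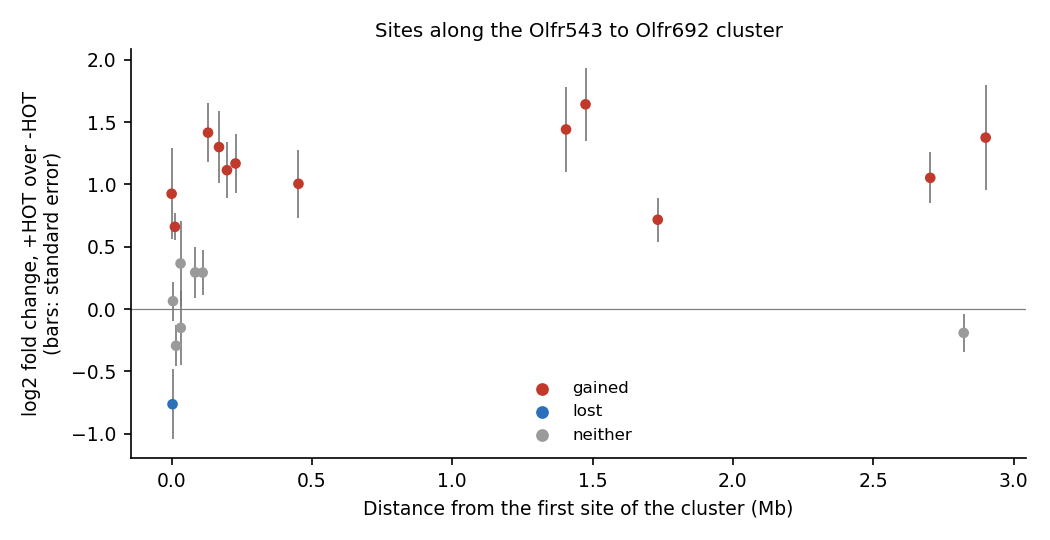
log2 fold change of +HOT over -HOT (vertical axis, bars are standard errors) of the 20 sites of the Olfr543 to Olfr692 cluster against their distance in Mb from the first site; points are coloured by call. Beyond the first 0.11 Mb, a split chosen after the values were seen, 10 of the 11 sites are gained. Over all tested intervals 21.3% are gained.

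In the other clusters the sites with the lowest adjusted p were mostly gained. The site near Olfr103 on chromosome 17 held 3.55 and 3.12 CPM in +HOT, against 0.667 and 1.84 CPM in -HOT (log2 fold change 1.45), and it was not called with DESeq2. Its log2 fold change was 0.85 without -HOT replicate 1 and 2.31 without -HOT replicate 2. The site near Olfr269-ps1 on chromosome 4 held 2.56 and 4.02 CPM in +HOT, against 1.28 and 1.41 CPM in -HOT (log2 fold change 1.28). The site near Olfr1381 on chromosome 11, which has a near-identical copy, held 2.77 and 2.26 CPM in +HOT, against 1.17 and 1.04 CPM in -HOT (log2 fold change 1.19). The sites near Olfr459 on chromosome 6 and Olfr223 on chromosome 11 were gained with log2 fold changes of 0.92 and 0.94, and the Olfr223 call was lost without -HOT replicate 1 (0.73). The exceptions among the 10 largest were the Olfr1417 to Olfr1505 cluster, where it was the lost Stx3 promoter, and the Olfr1416 to Olfr12 cluster. There a site near Olfr12 held 13.7 and 13.2 CPM in +HOT, against 19 and 16.6 CPM in -HOT. Its log2 fold change of -0.41 lay at the threshold and was not called without +HOT replicate 2 (-0.39), without -HOT replicate 1 (-0.31), with library totals alone (-0.34) or with the abundance trend removed (-0.23).

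The CTCF core was found in 6.12% of receptor sites and 6.52% of all intervals, and in 10.7% of gained receptor sites, beside 12.2% of all gained and 1.53% of all lost intervals. TGANTCA, with any middle base, was found in 31.1% of receptor sites (95% Wilson interval 25.1 to 37.9%) and 24.6% of all intervals. It was found in 35.5% of the receptor sites between genes (28.4 to 43.4%), beside 28.1% of all intergenic intervals. These differences were not tested. By call it was found in 22.7% of gained and 37.5% of lost receptor sites, beside 17.3% of all gained and 28.8% of all lost intervals. TTGCNNAA, part of the CEBP motif, was found in 14.8% of receptor sites and 13.7% of all intervals, and GGAATG in 24% and 22.3%. TAATTA, the core bound by LHX2 and other homeodomain factors, was found in 5.61% of receptor sites and 6.83% of all intervals. The palindromic core bound by the EBF factors of olfactory neurons was found in 1.02% and 1.07%, and TGACGTCA, bound by CREB and ATF factors, in 1.02% and 0.479%. A match is a description and not a measured binding site.

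Genes linked to receptor signalling, receptor choice and heterochromatin were examined at the interval nearest to their own starts. That interval lay 2336 bp away for Plcb2 and 1285 bp away for Omp. Of 37 such genes 28 had an interval within 3000 bp, of which 3 were gained and 12 lost (median log2 fold change -0.31), beside 7.07% gained and 23.5% lost among all promoter intervals. The 9 without an interval were Cnga2, Cnga4, Cngb1, Rtp1, Rtp2, Stoml3, Gnat3, Tas1r2 and Tas1r3. Among the lost were Itpr3, the inositol trisphosphate receptor of taste cells (16.9 and 16.1 CPM in +HOT, against 37.0 and 34.9 CPM in -HOT; log2 fold change -1.12), and Adcy3, the adenylyl cyclase of odour transduction (8.64 and 8.53 CPM in +HOT, against 17.8 and 14.8 CPM in -HOT; -0.93). Gnal, the olfactory G protein alpha subunit, held 6.49 and 4.47 CPM in +HOT, against 10.3 and 10.4 CPM in -HOT (log2 fold change -0.89). Lhx2, a homeodomain factor needed for receptor choice, and Omp, the marker of mature olfactory neurons, were lost with log2 fold changes of -0.55 each. The 3 gained were Trpm5, the cation channel of taste cells (8.74 and 9.35 CPM in +HOT, against 3.69 and 3.92 CPM in -HOT; log2 fold change 1.25), Plcb2, the phospholipase upstream of it (0.92), and Ano2, the calcium-activated chloride channel of olfactory cilia (0.72). Lbr and Cbx5, which encode the lamin B receptor and the heterochromatin protein HP1 alpha, had log2 fold changes of -0.38 and -0.26 and were not called, and Kdm1a, the histone demethylase LSD1, had -0.15.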

How the data were processed

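ATAC-seq of 2 +HOT and 2 -HOT libraries was used. The authors aligned paired reads to mm9 with BWA (version not stated), removed duplicates and blacklisted reads, called peaks with MACS2, and deposited raw read counts per interval. The joining of peaks and the handling of multiply aligned reads are not stated. The study states fewer PCR cycles for 1 -HOT library. The deposited scaled signal (counts times a constant per library) served only to check column order. The authors' DESeq2 columns and footprint tables were not used. Starts, which are 0-based, were shifted by 1 bp. Counts were tested with edgeR 4.0.16 (R 4.3.3; TMM factors 0.969 to 1.04; filterByExpr), checked on simulated data. Copies were searched with BLAST 2.17.0 (95% identity over 80% of a site). Named sites were the 10 gained and 5 lost with the largest change and no overlap, the 10 strongest, the lowest adjusted p of each family and of the 10 largest clusters, the 10 start sites with the lowest adjusted p, and the site at Olfr456. Other sites named in the text, such as those near Olfr552, Olfr554, Olfr557, Taar1, Taar7f, Olfr455 and the neighbouring promoters, were chosen after their values were seen. Members, lists and rules were chosen with earlier results of these data known. The reference is not soft-masked, so no repeat share was computed. The alternatives were DESeq2, 5 other scalings, 2 filters, leaving out each library, the replicate block, removal of copied sites and a cluster gap of 250 kb.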

Additional observations from a re-analysis of the deposited data

How the results depend on the processing

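The count of gained receptor sites was 50 to 79 over all alternatives and that of clusters with more gained than lost sites 10 to 13, against 75 and 12, and no called value changed sign. With DESeq2, 8 receptor sites were lost (16 in edgeR) and 36 Olfr sites gained (57 in edgeR). The median log2 fold change of the receptor sites was 0.17 after an abundance trend was removed, 0.24 after a GC trend was removed, 0.22 when TMM used distal sites and 0.36 with library totals in place of TMM, against 0.29. Library totals moved the median of all tested intervals to 0.07 and the distal factors to -0.08, with 28921 gained and 12662 lost in the first case and 21863 gained and 22704 lost in the second, against 25433 and 17008. DESeq2 called 15092 gained and 11960 lost over all intervals. Leaving out each library in turn gave 52 to 65 gained and 8 to 13 lost receptor sites, a median of 0.25 to 0.30, 1 to 2 gained Taar and 2 to 3 gained Tas2r sites, with the lowest values without -HOT replicate 1. In these refits the spread of a lone library is taken from the other group. Of the calls, 44 gained and 5 lost held in all 13 refits. For the 42 named sites, 490 refitted values kept their call, 48 lost it and 5 gained one. The cause of these moves was not tested. The replicate block left 75 gained and 16 lost. The replicate numbers do not pair the libraries, since the deviations of same-numbered libraries correlated at 0.0409 over all intervals and -0.0634 over receptor sites. Without the 10 sites that have a copy in the receptor clusters, 71 were gained and 16 lost of 186. Weak sites limit the depth, with 60 reads over the 4 libraries at the lowest.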

Other observations

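Receptor pseudogenes, which encode no working receptor, had 11 sites nearest to them, of which 3 were gained and 2 lost, beside 72 gained and 14 lost among the 185 sites nearest to other receptor genes. Sites with a near-identical copy in the genome numbered 11, of which 4 were gained and 1 lost. By gene part, 17 sites were centred in an intron of a receptor gene, with 7 gained and 3 lost, and 6 in a coding exon, with 2 gained and 0 lost. Over all tested intervals 21.3% were gained and 14.2% lost. The olfactory and vomeronasal neuron markers with an interval summed to 53.5 and 44.3 CPM in +HOT, against 76.3 and 68.4 CPM in -HOT, and all 5 of them were lost. Of the 10 fibroblast markers 0 were gained and 3 lost, and among all promoter intervals 7.07% were gained and 23.5% lost. The taste cell markers with an interval summed to 27.9 and 27.1 CPM in +HOT, against 25.8 and 23.5 CPM in -HOT, with Trpm5 and Plcb2 gained and Tas1r1 lost. None of these values was tested against the rest of the genome.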
